A study of Sus scrofa with 9 samples.

Results

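The 10 genes described here encode the cyclins, kinases and inhibitors that act in the G1 phase of the cell cycle, and they were taken by symbol from a list of the D cyclins (CCND1, CCND2, CCND3), the E cyclins (CCNE1, CCNE2), the kinases CDK4 and CDK6, and the CIP/KIP inhibitors (CDKN1A, CDKN1B, CDKN1C). All 10 were matched among the 30477 gene IDs of the deposited files, and all 10 were among the 11063 genes that reached an FPKM (fragments scaled by gene length and by library total) of 1 in at least 3 libraries and were tested. The RNA came from cultured porcine embryonic fibroblasts, which are connective tissue cells grown out of pig embryos. Cells were thawed and cultured before insulin was added. Untreated cells taken at 0 h were the control, and the other cells were taken 48 h or 72 h after insulin was added, with 3 libraries, described as biological replicates, at each time. All groups share the cell type and the embryonic stage. The sources used here do not state the insulin dose, the medium or how many embryos the cells came from. Untreated cultures of 48 h or 72 h were not analysed here, so insulin and time in culture cannot be told apart in any comparison with 0 h.

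D cyclins bind CDK4 and CDK6 and carry the signal of growth factors into the cell cycle: the active kinases phosphorylate the retinoblastoma protein RB, which then releases E2F transcription factors. E2F factors switch on genes of DNA replication and also the E cyclins, which bind CDK2 and drive cells into S phase. The CIP/KIP proteins p21 (CDKN1A), p27 (CDKN1B) and p57 (CDKN1C) bind cyclin-CDK complexes and inhibit those of CDK2, and in fibroblasts they are known for their part in arrest after DNA damage, contact between cells or loss of growth factors.

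FPKM sums ranged from 487858 to 497665 at 0 h, from 524992 to 563656 at 48 h and from 505022 to 525471 at 72 h, and 10761 to 10833 genes per library reached an FPKM of 1. The number of reads behind a value is unknown. The fibroblast label was checked on 9 markers, of which 8 were matched by symbol and all 8 reached an FPKM of 1. They summed to 19642 to 20523 FPKM at 0 h, 17786 to 18662 at 48 h and 19752 to 20305 at 72 h, carried mostly by the collagen genes COL1A1 and COL1A2 and by VIM. The fibroblast genes of lowest level differed more between times: the mean FPKM at 0 h, 48 h and 72 h was 9.34, 26.9 and 36.4 for the receptor gene PDGFRA, 12.7, 33.8 and 48.3 for LUM, and 26.5, 46.9 and 72.2 for DCN. In the same order, PDGFRB was at 97.7, 95.9 and 122, and COL3A1 was at 1208, 961 and 1100. Among markers of other cells, the endothelial gene CDH5, the leukocyte genes PTPRC and CD3E and the adipocyte genes ADIPOQ and LEP were listed at 0 in every library. The matched endothelial markers summed to 0.56 to 0.99 FPKM at 0 h, 0.77 to 1.09 at 48 h and 1.04 to 1.16 at 72 h. Most of that was PECAM1, at means of 0.787, 0.83 and 1.09. Some marker lists moved with time. The skeletal muscle list summed to 1426 to 1457 FPKM at 0 h, 861 to 940 at 48 h and 792 to 995 at 72 h, nearly all of it from DES, which encodes the filament protein desmin, with MYOD1 and ACTN2 below 1 throughout. MYOG was at means of 0.453, 1.28 and 1.15, and MYH3 at 3.28, 1.63 and 0.93. The 4 pericyte and smooth muscle markers summed to 752 to 774, 575 to 674 and 533 to 645 FPKM, mostly from CNN1, with RGS5 below 1 throughout. The neural list, in which SOX10 and GFAP were below 1, summed to 63.5 to 71.7, 135 to 162 and 128 to 149.5 FPKM. Nearly all of that was TUBB3, at 62.0 to 70.5, 134 to 161 and 127 to 148 FPKM, while MAP2 was at means of 1.45, 1.07 and 1.18. The matched epithelial markers summed to 5.56 to 6.77, 12.2 to 13.2 and 9.11 to 10.4, mostly from KRT8, with EPCAM and CDH1 below 1. The immune list summed to 11.3 to 14.9, 32.8 to 36.4 and 19.2 to 46.4, mostly from CD79A, at means of 10.8, 30.6 and 32.7, with CD14 at means of 1.83, 4.03 and 4.05. The part of these markers in the results below was not tested.

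The 10 genes did not move as a block. At 48 h CCND1, CCND3, CDKN1A and CDKN1C were higher than at 0 h, while CCND2, CCNE1, CCNE2, CDK6 and CDKN1B were lower, and CDK4 did not pass the test. At 72 h CCND1, CDKN1A and CDKN1C were higher, and both E cyclins and CDK6 were lower. The moderated test of limma was run on log2(FPKM + 1) across all 11063 genes, and a change counts as called where its Benjamini-Hochberg adjusted p was under 0.05. At 48 h that held for 9 of the 10 genes (4 higher and 5 lower), where 49.9% of all tested genes were called. At 72 h 6 of 10 were called against 0 h, 3 in each direction, where 45.5% of all genes were called, and 5 of 10 were called between 48 h and 72 h, 1 higher and 4 lower, where 25.4% were called. Each direction has its own background: at 48 h 27.6% of the tested genes were higher by this rule and 22.4% lower, and at 72 h 23.0% and 22.5%. From 48 h to 72 h those shares were 9.17% and 16.3%. The libraries of both times did not overlap for 9 of the 10 genes at 48 h (4 higher and 5 lower) and for 8 at 72 h (3 higher and 5 lower), where the shares of all genes were 60.0% (32.4% higher and 27.6% lower) and 58.6% (28.1% and 30.4%). Between 48 h and 72 h they did not overlap for 6 of 10, 2 higher and 4 lower, beside 38.9% of all genes (14.9% and 23.9%). The 2 comparisons with 0 h share the 0 h libraries and are not independent of each other. The median log2 change of the 10 genes was -0.08 at 48 h and -0.11 at 72 h, beside 0.02 and -0.01 over all genes. In size, whatever the sign, the median was 0.38 at 48 h and 0.48 at 72 h, beside 0.23 and 0.21 over all genes.

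**Figure D1:**
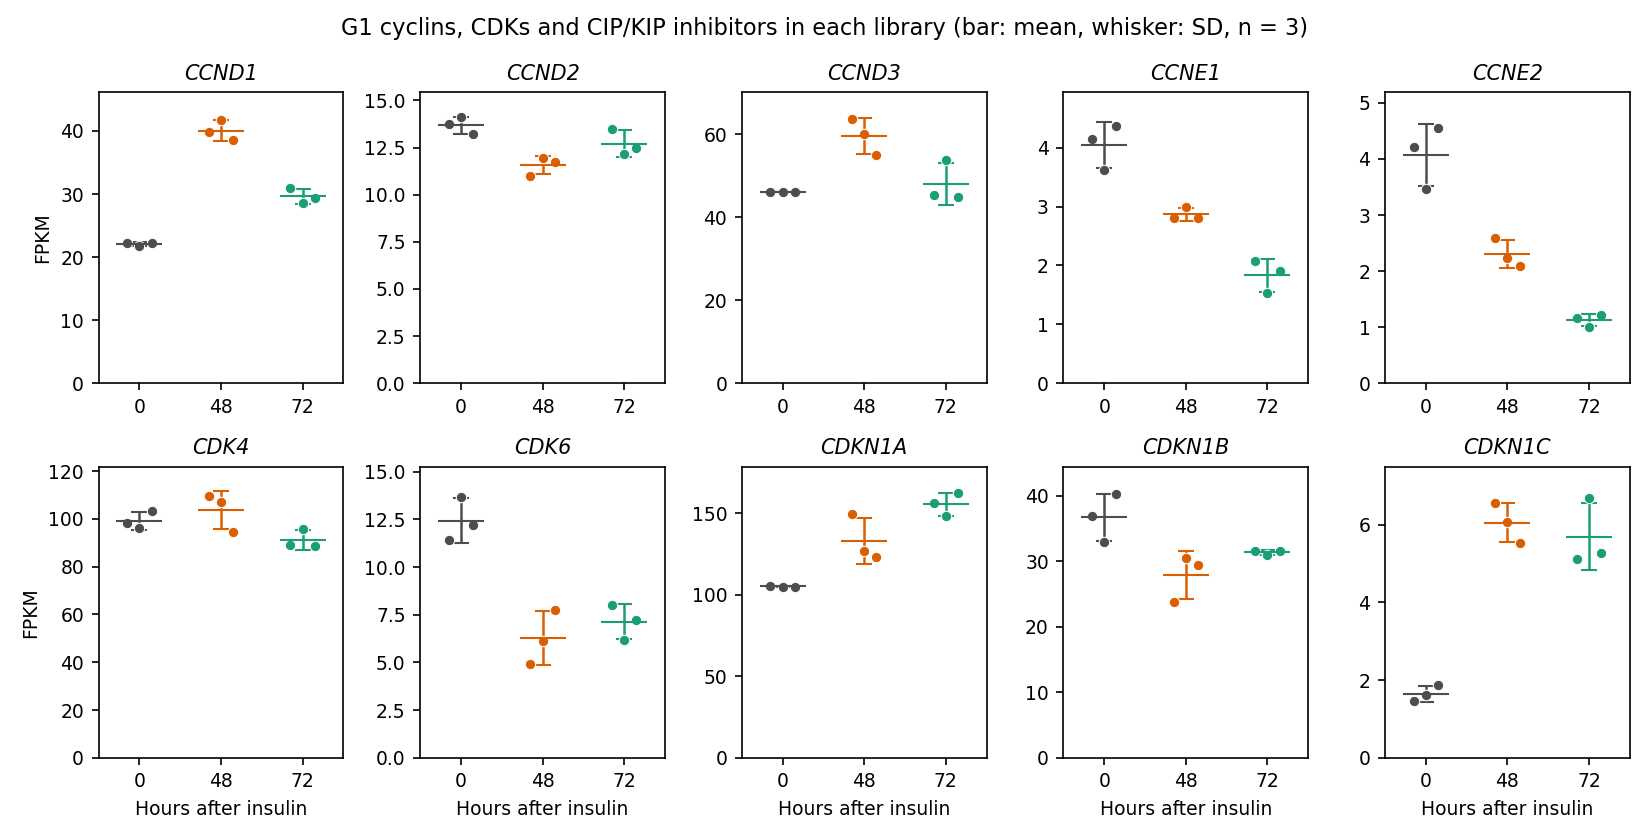
FPKM of the 10 genes (vertical axes, each starting at 0) in the 3 libraries of each time (horizontal axes, hours after insulin), with points for libraries, a bar for the mean and whiskers for the SD. CCND1 is highest at 48 h, CCNE1 and CCNE2 are lower at each later time, and the 3 libraries of CDKN1C at 0 h lie between 1.46 and 1.87 FPKM, below all later ones.

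Among D cyclins, CCND1 changed most. CCND1 (ENSSSCG00000037900, chromosome 2, 3621242 to 3633380 of Sscrofa11.1) encodes cyclin D1, the D cyclin most closely tied to growth factor signals in fibroblasts. Its FPKM was 22.3, 21.8 and 22.2 in the 0 h libraries, 39.9, 41.8 and 38.5 at 48 h, and 30.9, 28.6 and 29.4 at 72 h. The 3 times do not overlap, with 48 h highest and 72 h in between. CCND1 rose from 22.1 ± 0.284 to 40.0 ± 1.64 FPKM at 48 h (mean ± SD, n = 3), or by 0.83 ± 0.06 (SE) on the log2 scale (adjusted p = 2.82e-06), and was at 29.7 ± 1.17 at 72 h (0.41 ± 0.06 against 0 h, adjusted p = 0.000178). The fall from 48 h to 72 h, of -0.42 ± 0.06, also passed the test (adjusted p = 0.000571).

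CCND3 (chromosome 7, 37087336 to 37182462) encodes cyclin D3 and had the highest FPKM of the D cyclins at each time. It was at 46.1, 46.1 and 46.0 FPKM at 0 h, 63.7, 60.1 and 55.0 at 48 h, and 45.4, 53.8 and 45.0 at 72 h. All 48 h libraries lie above all others, while the 72 h libraries lie on both sides of the 0 h values because replicate 2 is above and the other 2 are below. CCND3 rose at 48 h by 0.36 ± 0.08 (adjusted p = 0.00342), and at 72 h the change from 0 h was 0.06 (95% interval -0.12 to 0.23, adjusted p = 0.589). From 48 h to 72 h it fell by 0.31 on the log2 scale (adjusted p = 0.0179). With library sums made equal the rise at 48 h was 0.23, and the fall between 48 h and 72 h was not called without either 72 h replicate 1 or 3 or without either 48 h replicate 1 or 2 (adjusted p 0.0564 to 0.0663).

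CCND2 (chromosome 5, 66092483 to 66114575) encodes cyclin D2 and went the other way. Its libraries were at 13.7, 14.1 and 13.2 FPKM at 0 h, 11.01, 11.9 and 11.8 at 48 h, and 13.5, 12.15 and 12.5 at 72 h. The 48 h libraries are below all others, and those of 72 h overlap 0 h. CCND2 fell at 48 h by 0.23 on the log2 scale (SE 0.07, adjusted p = 0.0153), a call lost without 0 h replicate 2 (adjusted p = 0.0605), and with equal library sums it was at -0.35. Its change at 72 h was -0.10 (95% interval -0.24 to 0.04, adjusted p = 0.233).

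Summed over the D cyclins, FPKM was 81.4 to 82.1 at 0 h, 105 to 115 at 48 h and 86.9 to 94.6 at 72 h. Cyclin D1 made up 26.6 to 27.3% of that sum at 0 h, 34.8 to 36.7% at 48 h and 30.3 to 34.4% at 72 h. Cyclin D2 made up 16.2 to 17.2%, 9.61 to 11.2% and 12.8 to 15.0%. The share of cyclin D1 was higher and that of D2 lower in every later library than in any 0 h library. The ratio of CCND1 to CCND2 within a library, which a scaling factor common to the library leaves as it is, was 1.54 to 1.68 at 0 h, 3.27 to 3.62 at 48 h and 2.29 to 2.36 at 72 h. These shares and ratios are descriptions and were not tested.

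Both E cyclins were lower at 48 h and lower again at 72 h. CCNE1 (chromosome 6, 39919541 to 39933224) and CCNE2 (chromosome 4, 41802090 to 41821870) encode cyclins E1 and E2, the partners of CDK2 at the entry into S phase. CCNE1 was at 4.15, 3.62 and 4.37 FPKM at 0 h, 2.81, 2.99 and 2.80 at 48 h, and 2.07, 1.53 and 1.90 at 72 h. The 3 times do not overlap. CCNE1 fell by 0.38 on the log2 scale at 48 h (SE 0.09, adjusted p = 0.00709) and by 0.83 at 72 h (adjusted p = 4.1e-05).

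CCNE2 was at 4.21, 3.47 and 4.55 FPKM at 0 h, 2.59, 2.23 and 2.1 at 48 h, and 1.17, 1.01 and 1.21 at 72 h. Again no library of one time lies within the range of another. CCNE2 fell by 0.62 on the log2 scale at 48 h (SE 0.10, adjusted p = 0.000703) and by 1.25 at 72 h (adjusted p = 3.22e-06), from a mean of 4.08 ± 0.552 to 1.13 ± 0.106 FPKM, which is 0.277 of the 0 h mean. Between 48 h and 72 h both fell, CCNE1 by 0.45 (adjusted p = 0.00682) and CCNE2 by 0.63 (adjusted p = 0.00161, and -0.97 with a pseudocount of 0.1, since the pseudocount of 1 compresses low values). At 0 h the E cyclins were at like levels, with CCNE1 at 49.0 to 51.1% of their sum, and at 72 h CCNE1 held 60.2 to 63.9%. The ratio of summed D cyclins to summed E cyclins was 9.13 to 11.6 at 0 h, 21.2 to 21.8 at 48 h and 27.7 to 37.2 at 72 h, with no overlap.

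The kinases that pair with D cyclins differed from each other. CDK6 (chromosome 9, 72510858 to 72765631) was at 11.4, 13.7 and 12.2 FPKM at 0 h, 4.92, 6.15 and 7.75 at 48 h, and 8.0, 6.17 and 7.25 at 72 h. All later libraries are below all of 0 h, and those of 48 h and 72 h overlap. CDK6 fell from 12.4 ± 1.17 to 6.27 ± 1.42 FPKM at 48 h (-0.90 ± 0.14, adjusted p = 0.000415) and to 7.14 ± 0.920 at 72 h (-0.73 ± 0.14, adjusted p = 0.00138). The difference between 48 h and 72 h was 0.17 (95% interval -0.13 to 0.48, adjusted p = 0.364). The RefSeq table of Sscrofa11.1 types this locus as lncRNA, unlike the other 9 genes, which it types as protein-coding, and which transcripts the deposited value counts is not stated in the labels.

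CDK4 (chromosome 5, 23039206 to 23041959) had the higher level of the pair at every time. Its libraries were at 98.1, 96.0 and 103 FPKM at 0 h, 109, 107 and 94.5 at 48 h, and 89.0, 95.9 and 88.5 at 72 h. The 48 h libraries span the 0 h range, and the 72 h libraries are just below it. CDK4 was at 0.06 at 48 h (95% interval -0.09 to 0.21, adjusted p = 0.470) and at -0.12 at 72 h (-0.27 to 0.03, adjusted p = 0.170). Its sign at 48 h turned with the scaling, at -0.07 with equal library sums, -0.05 with equal sums over protein-coding genes and -0.09 after quantile normalization, and it was called at -0.25 after removal of the trend that log2 values followed with gene span (adjusted p = 0.00167). At 72 h CDK4 was called lower under the same 4 settings, at -0.27 to -0.16. CDK6 made up 10.4 to 12.5% of the summed FPKM of the pair at 0 h, 4.30 to 7.58% at 48 h and 6.05 to 8.25% at 72 h. The genes span 254774 bases for CDK6 and 2754 for CDK4. With the gene span trend removed CDK6 was at -0.75 at 48 h, beside -0.25 for CDK4, and both were called lower. The share was taken from FPKM as deposited, with that trend left in.

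The CIP/KIP inhibitors went both ways as well. CDKN1C (chromosome 2, 2019391 to 2022092) encodes p57, which is known from embryonic growth and from imprinting, and it had the largest change of the 10 genes as deposited. With the gene span trend removed it was at 1.10 at 48 h and 1.18 at 72 h, and CCNE2 at 72 h, at -1.26, was larger in size. It was at 1.46, 1.61 and 1.87 FPKM at 0 h, 6.55, 6.06 and 5.54 at 48 h, and 5.11, 6.68 and 5.27 at 72 h. Every later library is above every 0 h library, and 48 h and 72 h overlap. The mean rose 3.67-fold at 48 h and 3.45-fold at 72 h, by 1.41 ± 0.11 and 1.33 ± 0.11 on the scale of log2(FPKM + 1) (adjusted p = 4.41e-06 and 2.71e-06). From 48 h to 72 h the change was -0.08 (95% interval -0.31 to 0.15, adjusted p = 0.592).

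CDKN1A (chromosome 7, 32354776 to 32363771) encodes p21, a target of p53, and had the highest FPKM of the 10 genes at each time. Its libraries were at 105.7, 104.8 and 105.1 FPKM at 0 h, 149.5, 127 and 123 at 48 h, and 156, 148 and 162 at 72 h. All later libraries are above 0 h, and replicate 1 of 48 h lies within the range of 72 h. CDKN1A rose at 48 h by 0.33 ± 0.07 (adjusted p = 0.00366) and at 72 h by 0.56 ± 0.07 (adjusted p = 0.000117). The rise at 48 h depends on the scaling: it was 0.20 with equal library sums and 0.22 with equal sums over protein-coding genes, both called, but not called at 0.16 after quantile normalization (adjusted p = 0.0764) and at 0.14 with the gene span trend removed (adjusted p = 0.0782). The rise of 0.23 from 48 h to 72 h (adjusted p = 0.0442) was lost under 9 of 19 alternatives and was 0.36 with the gene span trend removed.

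CDKN1B (chromosome 5, 59731224 to 59735831) encodes p27, which is known to accumulate in resting cells, mostly by slower breakdown of the protein. It was at 36.9, 32.9 and 40.2 FPKM at 0 h, 23.75, 30.5 and 29.4 at 48 h, and 31.6, 30.9 and 31.5 at 72 h. The later libraries are all below 0 h, and 48 h replicate 1 is the lowest. CDKN1B fell at 48 h by 0.39 on the log2 scale (SE 0.10, adjusted p = 0.0074), and by 0.65 with the gene span trend removed. At 72 h it was at -0.22 (95% interval -0.43 to -0.0027, adjusted p = 0.0918), called with the gene span trend removed (-0.33), with 2 groups in the fit, without 0 h replicate 2 and without 48 h replicate 1.

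Summed FPKM of the CIP/KIP genes was 139 to 147 at 0 h, 158 to 179.8 at 48 h and 186 to 199 at 72 h. CDKN1A held 71.4 to 75.2% of it at 0 h and 77.6 to 83.2% at 48 h, and 79.8 to 81.5% at 72 h. CDKN1B held 23.6 to 27.3% at 0 h, 13.2 to 18.7% at 48 h and 15.8 to 16.7% at 72 h, and CDKN1C 1.01 to 1.27%, 3.50 to 3.71% and 2.65 to 3.60%. The ratio of summed CIP/KIP to summed D cyclin FPKM did not keep 1 direction: it was 1.70 to 1.81 at 0 h, 1.44 to 1.57 at 48 h and 1.96 to 2.29 at 72 h, lowest at 48 h and highest at 72 h without overlap. The shares and ratios of the CIP/KIP genes and of the D and E cyclins were also taken from FPKM as deposited, with the gene span trend left in.

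**Figure D2:**
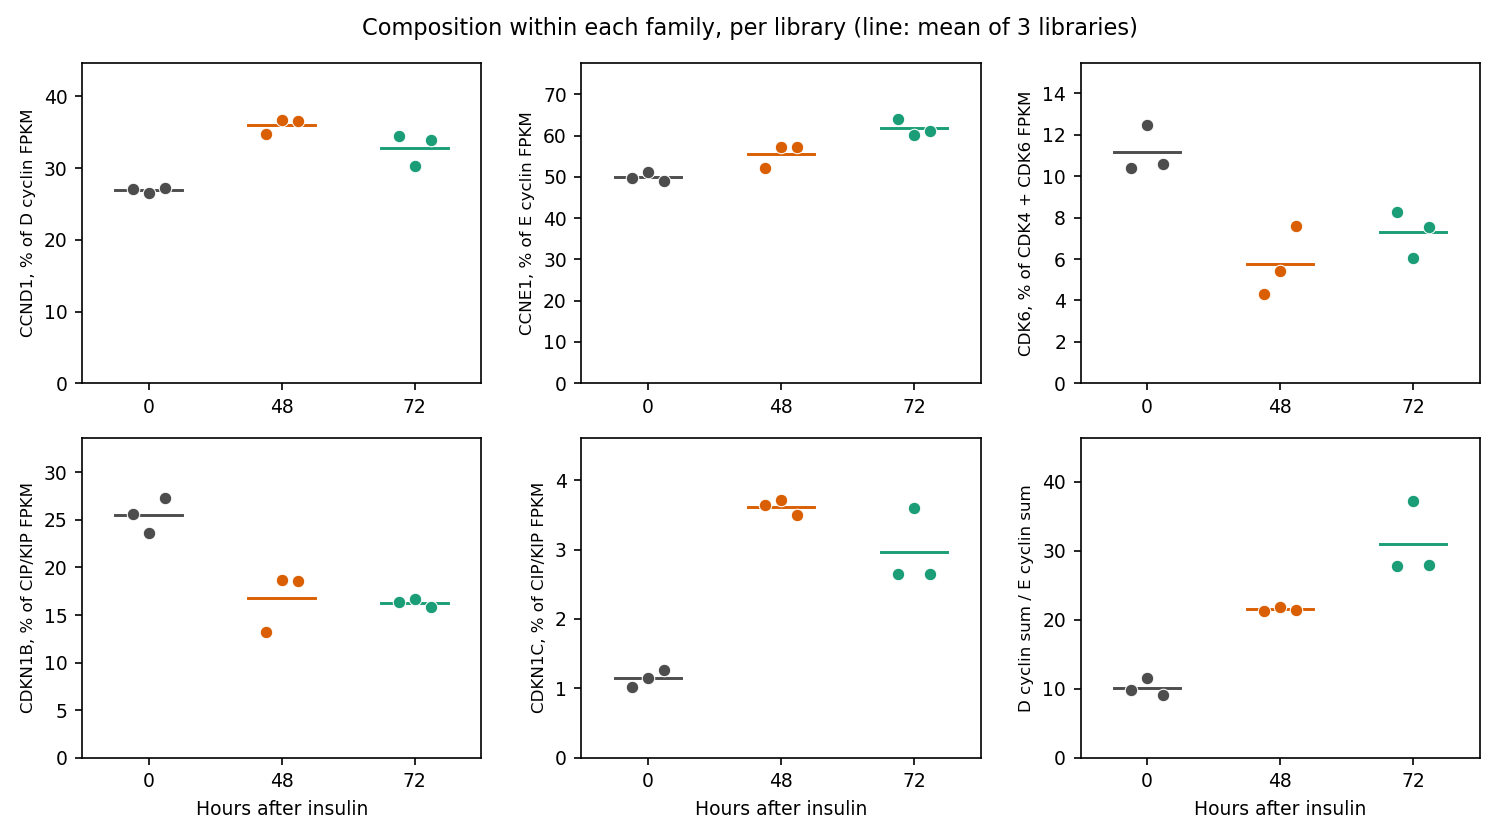
Share of a gene in the summed FPKM of its family, or the ratio of the summed D to the summed E cyclins, in each library (vertical axes, starting at 0) against hours after insulin, with a line for the mean of the 3 libraries. The ratio of D to E cyclins is 9.13 to 11.6 at 0 h and at least 21.2 in every later library.

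**Figure D3:**
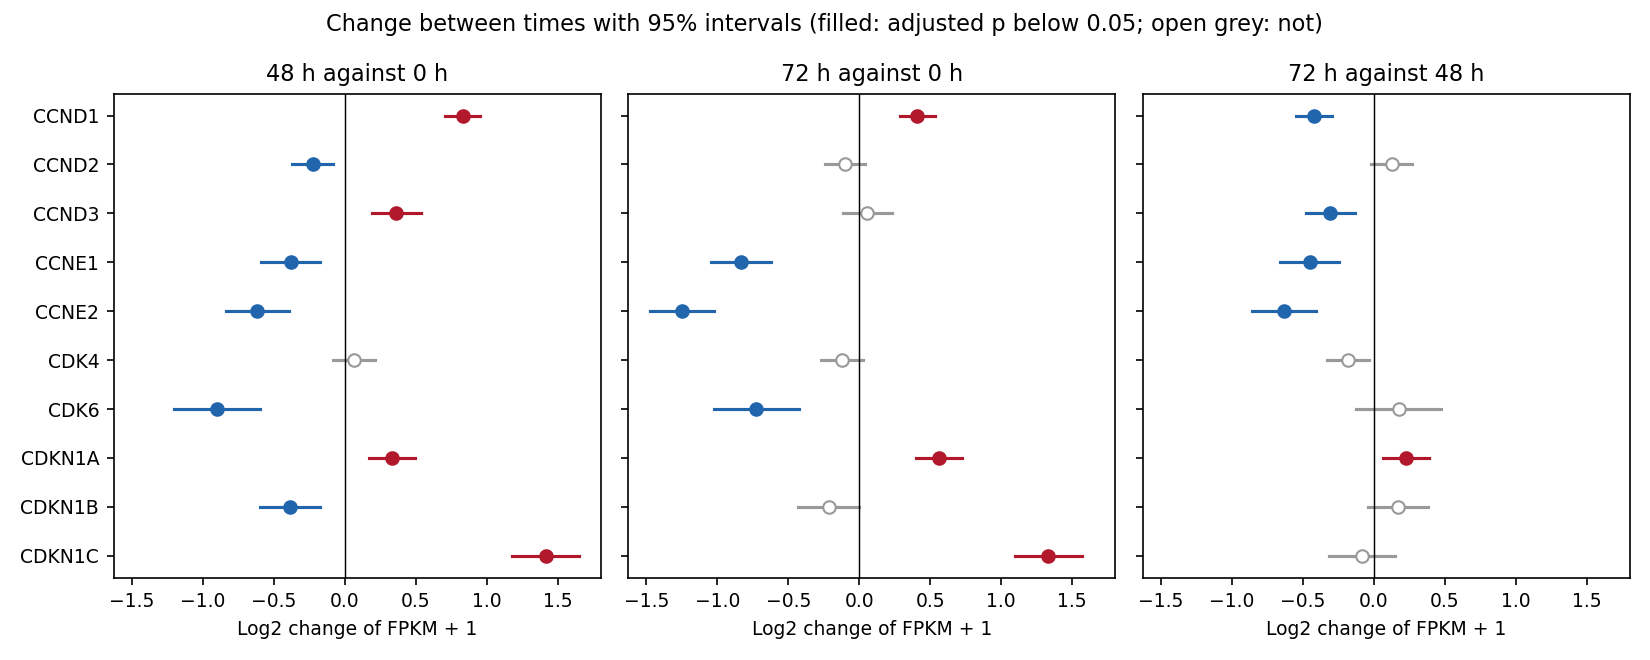
Log2 change of FPKM + 1 (horizontal axes) of the 10 genes in each comparison, with 95% intervals from limma. Filled points passed an adjusted p of 0.05, red for higher and blue for lower, and open grey points did not. CDKN1C at 48 h lies farthest to the right, at 1.41, and CCNE2 at 72 h farthest to the left, at -1.25.

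FPKM is scaled to gene length, and levels were ordered across genes as deposited. Reads shared by overlapping genes and, for CDK6, the unknown transcripts counted limit that order. At 0 h the order from high to low was CDKN1A, CDK4, CCND3, CDKN1B, CCND1, CCND2, CDK6, CCNE2, CCNE1 and CDKN1C, with means from 105 to 1.65 FPKM. Neighbours in that order did not overlap, except CCND2 with CDK6 and CCNE2 with CCNE1. At 48 h CCND1 stood above CDKN1B and CDKN1C above both E cyclins, and the only neighbours that overlapped were CDK6 and CDKN1C. At 72 h CCNE2 was lowest at 1.13 FPKM, CDKN1B and CCND1 overlapped at 31.4 and 29.7, and so did CDK6 and CDKN1C at 7.14 and 5.69. The libraries are of whole cultures, so fewer cells of a kind and less RNA per cell cannot be told apart in any of these levels.

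For each of the 9 genes that differed among the 3 times (moderated F-test, called for 60.6% of all genes), the genes most like it were sought by Pearson's correlation over the 9 libraries, as a description in which all points share the 3 times. Only tested genes with a symbol were searched, so a tested gene without one may be nearer. The values were log2(FPKM + 1) as deposited, with the gene span trend left in, and shared regulation was not tested. Nearest to CCND1 was SLC6A17 (r = 0.986), followed by EWSR1 (0.983), which encodes an RNA-binding protein. CCND2 was nearest to C1QL3 (0.968) and to DST (0.963), which encodes a large cytoskeletal linker. CCND3 was nearest to COTL1 (0.987), which encodes an actin-binding protein, and to REM1 (0.983), CCNE1 to OLFM1 and the stretch-responsive gene ANKRD1 (both 0.984). For CCNE2 these were REEP4 (0.993) and CTPS1 (0.991), an enzyme of CTP synthesis, and for CDK6 they were PDE4DIP (0.997) and SYNE2 (0.988), which links the nucleus to actin. CDKN1A was nearest to TNK2 (0.992) and TMEM51 (0.988), CDKN1B to BLTP3A (0.966) and PPHLN1 (0.958), and CDKN1C to SOD3 (0.994), the extracellular superoxide dismutase, and NEK6 (0.993).

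Other genes of the cell cycle were read from 8 lists of 92 genes, of which 78 were matched by symbol and 77 were tested. One list holds proliferation markers of mitosis and replication. The other 7 lists hold regulators of G1 and also genes that act elsewhere, such as FOXM1 in mitosis and several p53 targets. At 48 h 7 of the 77 rose and 40 fell, with a median log2 change of -0.22, and at 72 h 11 rose and 36 fell, with a median of -0.12. Over all genes the medians were 0.02 and -0.01, with 27.6% called higher and 22.4% lower at 48 h, and 23.0% and 22.5% at 72 h. With equal library sums the genes that rose numbered 4 at 48 h and 7 at 72 h. Without the list of proliferation markers 65 genes remain, of which 7 rose and 29 fell at 48 h (median -0.15), and 11 rose and 24 fell at 72 h (median -0.08). Those 65 genes still include FOXM1, so they are not a set apart from proliferation. From 48 h to 72 h 15 of the 77 rose and 25 fell, where 9.17% of all genes were called higher and 16.3% lower, and 13 of the 25 were not on the list of proliferation markers. The 15 became 7 without 48 h replicate 1 or without 72 h replicate 1, 8 without 48 h replicate 2, and 9 without 72 h replicate 3 or with no filter on low values, and 10 with 2 groups in the fit.

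The lists are given one by one, to be read against those shares of all genes; no difference between lists was tested. INK4 proteins inhibit CDK4 and CDK6, and of the 4 INK4 genes 2 fell and none rose at either time. CDKN2C, which encodes p18, fell from 15.3 ± 0.711 to 8.69 ± 0.948 FPKM at 48 h (-0.75 ± 0.11, adjusted p = 0.000388) and to 4.69 ± 0.930 at 72 h (-1.53 ± 0.11). The other that fell was CDKN2D, at -0.39 and -0.87, while CDKN2A was at -0.15 (adjusted p = 0.562) and 0.14 (0.620) and CDKN2B at 0.08 (0.543) and 0.28 (0.0561).

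Of 13 genes of the RB family and the E2F and DP factors, 0 rose and 7 fell at 48 h, and 1 rose and 9 fell at 72 h, with medians of -0.22 and -0.37. On the scale of log2(FPKM + 1) the largest fall at both times was that of E2F8, a repressor among the E2Fs. E2F8 went from 9.96 ± 0.397 to 1.76 ± 0.161 FPKM at 72 h (-1.99 ± 0.07, adjusted p = 1.79e-08). As a ratio of FPKM the fall of E2F2 at 72 h was larger, from 1.38 ± 0.113 to 0.20 ± 0.062. Its change on the scale of log2(FPKM + 1), which compresses such low values, was -0.99. The gene that rose at 72 h was RBL2, whose product p130 binds E2F factors in resting cells, from 4.45 ± 0.193 to 5.75 ± 0.363 FPKM (0.31 ± 0.09, adjusted p = 0.0194). In the list of the DREAM and MuvB complex with FOXM1 and MYBL2, 0 of 5 rose and 4 fell at both times. LIN9, a MuvB subunit, fell by 1.26 on the log2 scale at 48 h (adjusted p = 0.000104), and FOXM1, a transcription factor of mitotic genes, was at -1.99 at 72 h (adjusted p = 6.36e-08). LIN37 was the exception, at 0.23 (adjusted p = 0.0963) and -0.13 (0.344).

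Of 4 tested genes in the list of CDK2, cyclin A, CDC25A and the CDK-activating kinase, 1 fell at each time, a share near that of all genes. It was CCNH, the cyclin of the activating kinase, at 48 h (-0.38 ± 0.09, adjusted p = 0.00662) and CDK2, the partner of E cyclins, at 72 h, from 50.7 ± 1.46 to 42.6 ± 3.96 FPKM (-0.25 ± 0.08, adjusted p = 0.0251). Among 12 genes of ubiquitin ligases that act on cyclins and inhibitors, 1 rose and 4 fell at 48 h, and 1 rose and 5 fell at 72 h. DTL, the receptor by which a CUL4 ligase recognises p21, fell from 3.75 ± 0.271 to 1.75 ± 0.520 FPKM at 48 h (-0.81 ± 0.13) and to 1.21 ± 0.112 at 72 h (-1.10 ± 0.13). The genes that rose were RBX1, a RING subunit, at 48 h (0.26, adjusted p = 0.00369) and DDB1, the adaptor of CUL4, at 72 h (0.15, adjusted p = 0.0304).

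Of 11 upstream transcription factors 3 rose and 2 fell at 48 h, shares near those of all genes, and 6 rose and 0 fell at 72 h, where 23.0% of all genes were called higher. MAX, the partner of MYC, rose by 0.44 at 48 h (adjusted p = 0.00613), while KLF4 fell by 0.39 on the log2 scale at 48 h (adjusted p = 0.00327). At 72 h KLF4 was higher than at 0 h, by 0.35 (adjusted p = 0.00519), and higher than at 48 h by 0.74 (adjusted p = 0.000183). FOXO4, a factor restrained by insulin signalling, rose from 2.77 ± 0.240 to 5.12 ± 0.670 FPKM at 72 h (0.70 ± 0.11, adjusted p = 0.000375). Among 16 tested p53 targets, the group to which CDKN1A also belongs, 3 rose and 9 fell at 48 h, and 3 rose and 3 fell at 72 h, where both shares are near those of all genes. CCNG1, which encodes cyclin G1, rose by 0.57 ± 0.07 at 72 h (adjusted p = 6.03e-05), and BBC3, which encodes the death protein PUMA, by 0.42 at 48 h (adjusted p = 0.00721). PLK2 fell by 0.87 on the log2 scale at 48 h (adjusted p = 7.61e-06) and GADD45A by 0.50 at 72 h (adjusted p = 0.00496).

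Among 12 tested proliferation markers 0 rose and 11 fell at 48 h, with a median of -1.01, and 12 fell at 72 h, with a median of -1.98. TOP2A, the topoisomerase of dividing cells, fell from 51.6 ± 1.60 FPKM at 0 h to 17.9 ± 2.62 at 48 h (-1.49 ± 0.11, adjusted p = 3.42e-06) and 9.20 ± 1.10 at 72 h (-2.37 ± 0.11, adjusted p = 3.72e-08). MCM2, a subunit of the replicative helicase, was the exception at 48 h, at -0.15 (adjusted p = 0.175). The part of these markers in the changes of the G1 genes was not tested.

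**Figure D4:**
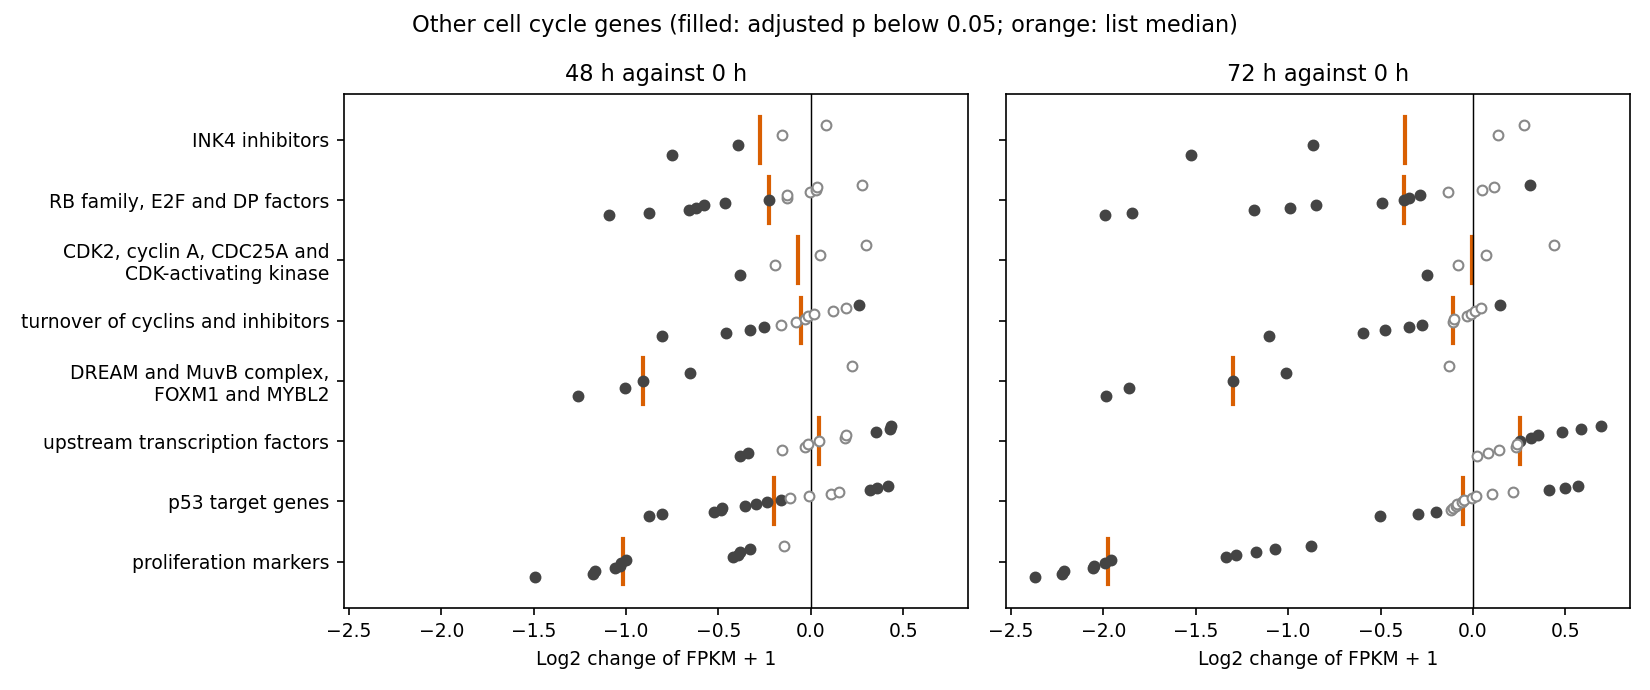
Log2 change of FPKM + 1 (horizontal axes) of the 77 tested genes in 8 lists of cell cycle control at 48 h and at 72 h against 0 h, with 1 point per gene, filled where the adjusted p was below 0.05, and an orange line at the list median. The proliferation markers lie farthest to the left, with medians of -1.01 and -1.98, and 6 of 11 upstream transcription factors are called to the right of 0 at 72 h.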

How the data were processed

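RNA was sequenced after removal of ribosomal RNA, per the labels' protocols. The deposited FPKM values, 1 per gene and library with 2 decimals, were made by the authors. Tools named without roles in the submitters' processing notes are RSEM 1.2.28, featureCounts 2.0.2, HISAT2 2.1.0 and DESeq2, with the build Sscrofa11.1. The sources used here state neither annotation nor use of strand, and overlapping genes may share reads. Symbols were known for 14864 of the 30477 IDs. Coordinates and gene spans came from RefSeq's table of Sscrofa11.1, matched by symbol.

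A gene was tested where 3 or more libraries had an FPKM of 1 or more. The scale was log2(FPKM + 1), which understates changes of low genes. The 9 libraries were fitted together by group in limma 3.58.1 under R 4.3.3, with no covariate and with a trend in the prior variance. Contrasts were two-sided, with Benjamini-Hochberg adjustment over 11063 genes. The genes and lists were chosen with earlier results of these data known. Named were all 10 genes, the called gene with the largest rise and fall of each list against 0 h, and the 2 genes of highest correlation among tested genes with a symbol. CDKN2A, CDKN2B, CDKN2D, E2F2, LIN37 and MCM2 were named after their values were seen. Lists were described by counts and medians only. Alternatives were a pseudocount of 0.1, no filter, a mean FPKM of at least 5, 3 other scalings, removal of a gene span trend, the replicate number as a block, 2 groups per fit and each library left out. P-values rest on the spread between libraries of the same group, pooled over the groups in the fit and moderated by the trend over all genes.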

Additional observations from a re-analysis of the deposited data

Results flagged for a closer look

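For 5 of the 10 genes the change from 0 h differed between 48 h and 72 h by the direct test of 72 h against 48 h. That test called 25.4% of all tested genes, 9.17% higher and 16.3% lower. The difference, as the change at 72 h minus that at 48 h on the log2 scale, was -0.42 for CCND1, -0.31 for CCND3, -0.45 for CCNE1, -0.63 for CCNE2 and 0.23 for CDKN1A. CCND1 and CCND3 were highest at 48 h, the E cyclins were lowest at 72 h, and CDKN1A had its highest mean at 72 h. The calls of CCND3 and CDKN1A were lost when single libraries were left out. No explanation was tested.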

How the results depend on the processing

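Of the 30 changes of the 10 genes, 20 were called, and 16 of these kept their direction and call under every alternative run. None of the 20 reversed. Of all tested genes, 49.9% were called at 48 h, 45.5% at 72 h and 25.4% between 48 h and 72 h. The 3 changes of a gene are not independent, since that between 48 h and 72 h is the difference of the other 2. CDKN1A and CCND2 at 48 h and CCND3 and CDKN1A between 48 h and 72 h lost their call somewhere. CDK4 at 48 h reversed to -0.0746 with equal library sums, -0.0508 with equal sums over protein-coding genes, -0.0906 under quantile normalization and -0.25 with the gene span trend removed, where it was called (adjusted p = 0.00167). CCND3 at 72 h reversed to -0.000877 under quantile normalization and to -0.0267 without 72 h replicate 2, the lowest value with 1 library left out, and the highest was 0.0996 without 72 h replicate 3. CDKN1C between 48 h and 72 h reversed to 0.0819 with the gene span trend removed. None of these 3 was called as reported, and the cause was not tested.

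With the stricter filter, a mean FPKM of 5 or more, by which CCNE1, CCNE2 and CDKN1C are left out, 3 of the 7 remaining genes were called at 72 h against 0 h and 3 between 48 h and 72 h. Under that filter 3847 of all 7905 tested genes were called at 72 h against 0 h. Leaving out 1 library gave 8 to 9 calls at 48 h, 6 to 7 at 72 h and 3 to 5 between 48 h and 72 h, with 3 without 48 h replicate 2, 72 h replicate 1 or 72 h replicate 3. Among all 11063 tested genes the same step gave 4445 to 5763 calls at 48 h and 4097 to 5437 at 72 h. Over all genes, calls between 48 h and 72 h numbered 2814, but 1839 with 2 groups in the fit and 1727 to 3693 with 1 library left out, the lowest without 48 h replicate 2. Equal library sums moved the median gene by -0.12 at 48 h, and the share of calls that were higher went from 55.2% to 34.7% at 48 h and from 36.0% to 55.9% between 48 h and 72 h. Under the same setting 4 of the 10 genes were called higher and 5 lower at 48 h, as before.

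With the replicate number as a block the counts were again 9, 6 and 5 of 10, and no call of the 10 genes changed. Same-numbered libraries of different times correlated in their deviations at -0.07 to 0.19, over 0.1 in 2 of 9 pairs. Those of different number correlated at -0.18 to 0.17. These overlapping ranges cannot decide whether the numbers mark pairs, and the main fit left the numbers out. The control fit of genes with a span but no trend removed was added after seeing the data. Depth is unknown, so no counting error could be given for the E cyclins and CDKN1C, the lowest of the 10 genes.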
